A study of Mus musculus with 12 samples.

Results

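This account covers 10 genes of the extracellular matrix protease system in mouse mammary tumours: 7 matrix metalloproteinase genes (Mmp2, Mmp3, Mmp9, Mmp10, Mmp11, Mmp13 and Mmp14) and 3 genes of their tissue inhibitors (Timp1, Timp2 and Timp3). The genes were chosen by name from 41009 gene rows, and all 10 passed the filter on low values, which asked for 1 FPKM or more in 3 or more of the 12 libraries. FPKM counts sequenced fragments, scaled by transcript length and by the size of the library.

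Per the sample labels, the tumours grew from mCherry-labelled 4T1 cells, a BALB/c mouse mammary carcinoma line, placed in the mammary fat pad. The hosts were BALB/c females, 4 to 5 weeks old. By those labels, all 4 groups carry the same single tumour line in hosts of the same strain. The design text of the series names another tumour, LLC, and digoxin as the agent, which does not match the labels of the 12 samples, and the labels were followed. From day 7 the mice received intraperitoneal Ctrl-Fc at 5 mg/kg (the group Ctrl), VHH-OD-Fc at 3.5 mg/kg, or VHH-PD-1-Fc at 2.6 mg/kg. The remaining group had the reagent with both arms, VHH-OD-PD-1-Fc, at 4.3 mg/kg. Each group gave 3 libraries of poly(A) RNA. A VHH is the single variable domain of a camelid heavy-chain antibody, Fc is the antibody constant tail, and PD-1 is a receptor that restrains T cells. The labels do not spell out OD, while the title of the series speaks of nanobodies to digoxin-like substances made by the body. Nothing in the labels ties each library to its own animal, so p-values measure only how these samples vary, and that variation may be technical.

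Matrix metalloproteinases are zinc enzymes that cut collagens, other matrix proteins and many cell surface and signalling proteins. They are made with a propeptide that keeps the catalytic zinc blocked until it is removed, and TIMP proteins then occupy the active site of the mature enzyme. In tumours the enzymes come from cancer cells, fibroblasts, macrophages and neutrophils alike, and the messenger RNA level measured here is one of several layers that set their activity.

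On the log2(FPKM + 1) scale Mmp2, which encodes gelatinase A, showed the largest change among members that passed the test. Its RNA fell in both groups given a PD-1 arm, to a fold of 0.29 of Ctrl with VHH-PD-1-Fc and 0.21 with VHH-OD-PD-1-Fc. Timp3, the matrix-bound inhibitor, also fell in both, to folds of 0.46 and 0.39. That order depends on the 1 added to each FPKM. With 0.1 added instead, Timp3 was at -2.72 with VHH-OD-PD-1-Fc against Ctrl. Mmp2 there ranged from -2.65 to -2.02 over all alternatives. No member passed the test with VHH-OD-Fc alone. The most abundant members, Timp1, Mmp3 and Mmp13, passed the test in none of the comparisons, and their libraries were widely spread after VHH-PD-1-Fc.

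Several facts about the libraries stand beside every comparison. Estimated depth was 43.6 to 61.0 M reads per library (M, megareads), from the spacing of low FPKM values. Of those low values, 95.2% to 96.3% lay within 0.05 of a whole read. The summed FPKM was 327792 to 345596 in the 6 libraries without a PD-1 arm and 388142 to 401179 in the 6 with one, with no overlap. Fold changes across that divide also ran with transcript length (Spearman rho across genes -0.32 for VHH-PD-1-Fc and -0.35 for VHH-OD-PD-1-Fc against Ctrl), but not within it (0 for VHH-OD-Fc against Ctrl, -0.01 for VHH-OD-PD-1-Fc against VHH-PD-1-Fc). The labels name no batch, so the PD-1 arm and any technical difference between the 2 sets of libraries cannot be told apart. Libraries with both arms were much alike: their median SD across members was 0.034 on the log2 scale, against 0.404 in Ctrl, 0.238 with VHH-OD-Fc and 0.722 with VHH-PD-1-Fc. Among the 12, 3 libraries stood apart by cell type markers. Summed epithelial markers were lowest in Ctrl replicate 1, muscle markers were highest in VHH-OD-Fc replicate 2, and macrophage markers were highest in VHH-PD-1-Fc replicate 2. Epcam, Krt8 and Krt18, which mark epithelial tumour cells, were above 0 in all 12 libraries.

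**Figure D1:**
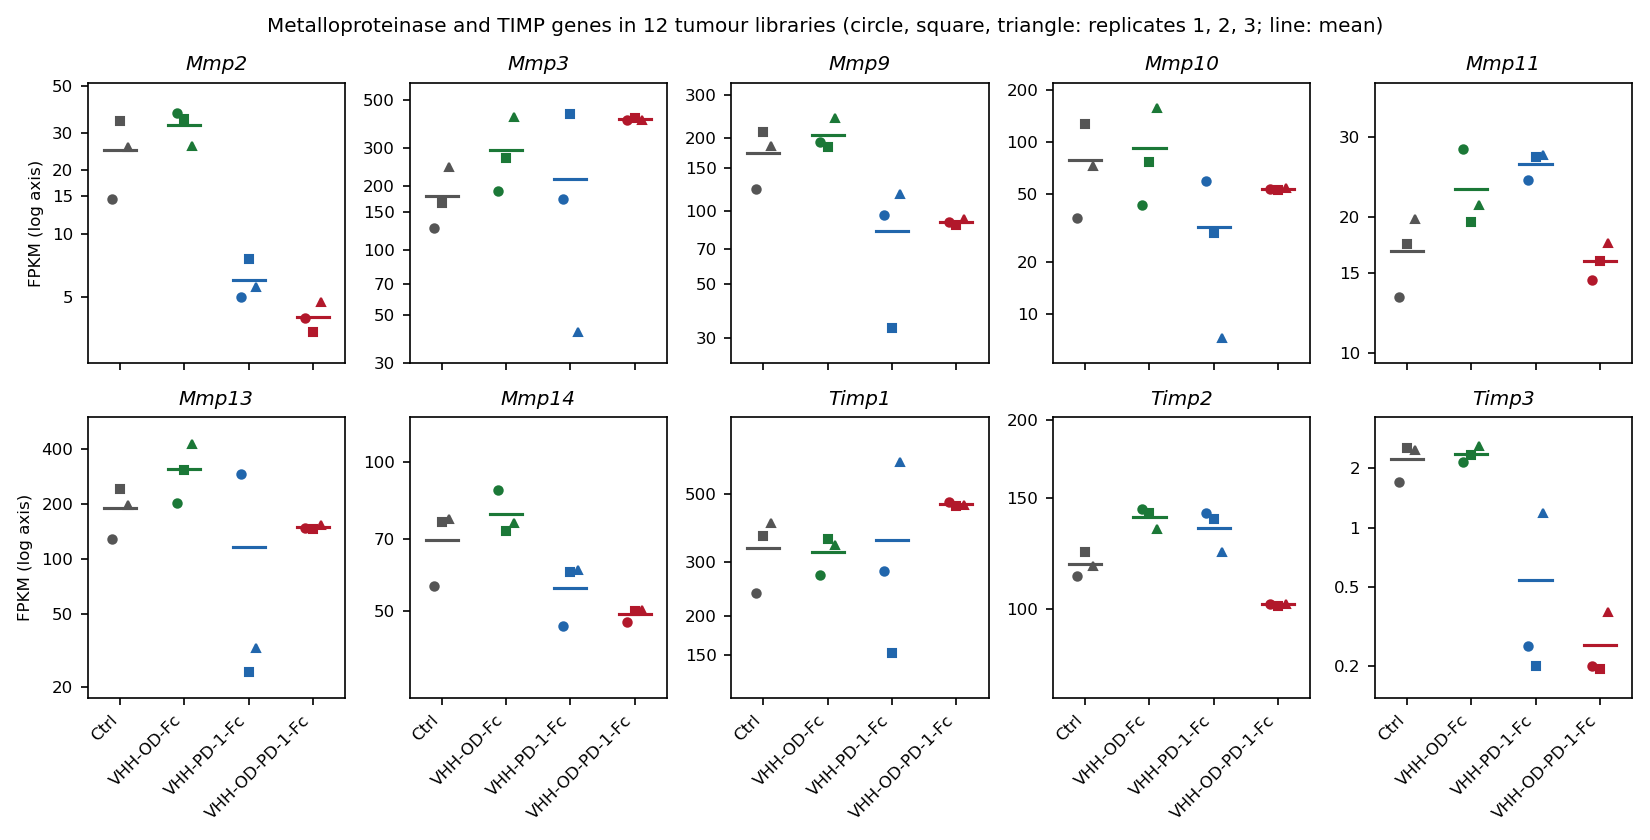
FPKM (log axes) of each of the 10 genes in the 4 treatment groups, with circle, square and triangle for replicates 1, 2 and 3 and a line at the group mean. Mmp2 lies at 14.6 or more in the 6 libraries without a PD-1 arm and at 7.59 or less in the 6 with one, and the VHH-OD-PD-1-Fc points nearly coincide for most genes.

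Averaged over the 12 libraries, Timp1 was the most abundant member at 369 FPKM, a scale that is per length and so allows genes to be set side by side. Mmp3 followed at 273, Mmp13 at 192, Mmp9 at 138, Timp2 at 124, Mmp10 at 64.0, Mmp14 at 63.3, Mmp11 at 20.5, Mmp2 at 16.9 and Timp3 at 1.34. Neighbours in this order often changed places. Mmp3 exceeded Mmp13 in only 6 of 12 libraries, Mmp9 exceeded Timp2 in 6, Mmp10 exceeded Mmp14 in 7 and Mmp11 exceeded Mmp2 in 6, whereas Mmp14 exceeded Mmp11 and Mmp2 exceeded Timp3 in all 12. The secreted proteases Mmp3, Mmp13 and Mmp9 together made up 65.6% to 84.3% of the summed Mmp FPKM. Timp1 made up 52.1% to 83.6% of the summed Timp FPKM.

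The summed FPKM of the 7 Mmp genes was 499 to 872 in Ctrl, 780 to 1366 with VHH-OD-Fc, 293 to 696 with VHH-PD-1-Fc and 760 to 775 with VHH-OD-PD-1-Fc. The ratio of that sum to the summed Timp FPKM was 1.42, 1.78 and 1.58 in Ctrl, and 1.86, 1.92 and 2.87 with VHH-OD-Fc. With VHH-PD-1-Fc it was 1.65, 2.1 and 0.386, and with VHH-OD-PD-1-Fc it was 1.33, 1.37 and 1.38. The VHH-OD-Fc ratios were all above those of Ctrl and the VHH-OD-PD-1-Fc ratios were all below them, while VHH-PD-1-Fc covered both sides, and its replicate 3 combined low Mmp3 and Mmp13 with the highest Timp1. These ratios of RNA levels carry no test.

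**Figure D2:**
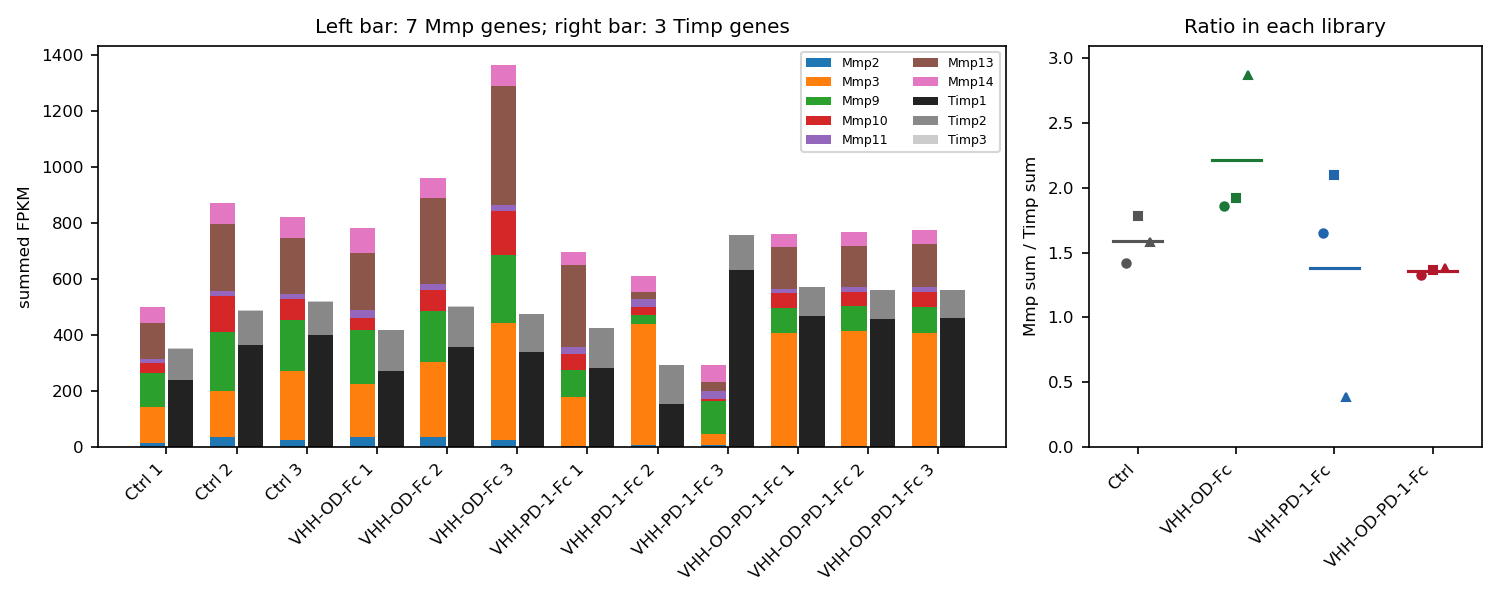
Summed FPKM of the 7 Mmp genes, summed FPKM of the 3 Timp genes and their ratio, per library in the 4 groups. The ratio runs from 0.386 in VHH-PD-1-Fc replicate 3 to 2.87 in VHH-OD-Fc replicate 3, and lies between 1.33 and 1.38 in the VHH-OD-PD-1-Fc libraries.

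The gelatinases degrade denatured collagen and the type IV collagen of basement membranes. Mmp2 RNA measured 14.6, 33.9 and 25.7 FPKM in Ctrl, 37, 34.9 and 26.0 with VHH-OD-Fc, 5.04, 7.59 and 5.6 with VHH-PD-1-Fc, and 4.02, 3.42 and 4.75 with VHH-OD-PD-1-Fc. Every library with a PD-1 arm was below every library without one, and each VHH-OD-PD-1-Fc library was below each VHH-PD-1-Fc library. Mmp2 fell by 1.80 (SE 0.26) on the log2 scale with VHH-PD-1-Fc against Ctrl, with a limma adjusted p of 0.000449. It fell by 2.28 (SE 0.26) with VHH-OD-PD-1-Fc against Ctrl, with an adjusted p of 0.000178, and by 2.73 (SE 0.26) against VHH-OD-Fc, with an adjusted p of 7.84e-05. Between the 2 groups with a PD-1 arm the difference was -0.48 (SE 0.26) and did not pass the test (adjusted p 0.415). With VHH-OD-Fc against Ctrl it was 0.45 (SE 0.26), with overlapping libraries and an adjusted p of 1, and 0.13 without Ctrl replicate 1 or 0.71 without Ctrl replicate 2. With the trend on transcript length removed, Mmp2 still fell by 1.57 with VHH-PD-1-Fc and by 2.09 with VHH-OD-PD-1-Fc.

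Fibroblasts are a main source of Mmp2 in tissues. Their summed markers were lowest with VHH-PD-1-Fc. Mmp2 had its lowest values with VHH-OD-PD-1-Fc, but its difference between those 2 groups did not pass the test (-0.48, limma adjusted p 0.415). The summed FPKM of 10 fibroblast markers was 630 to 919 in Ctrl, 790 to 1223 with VHH-OD-Fc, 274 to 542 with VHH-PD-1-Fc and 629 to 635 with VHH-OD-PD-1-Fc, and none of the 10 was at 0. Col1a1, Col1a2 and Col3a1, which encode fibrillar collagen chains, lead that list. They make up most of the sum, at 302, 96.4 and 115 of 630 FPKM in Ctrl replicate 1. With VHH-PD-1-Fc against Ctrl, 8 of the 10 markers fell, among them Pdgfra by 1.14 and Col1a1 by 1.06, where 32.3% of all genes were lower. With VHH-OD-PD-1-Fc against Ctrl only Pdgfra (-0.90, SE 0.13) and Pdgfrb (-0.39, SE 0.13) fell, where 27.1% of all genes were lower. Against VHH-OD-Fc, 8 of the 10 markers fell with VHH-OD-PD-1-Fc and none rose, where 24.5% of all genes were lower. Divided by the fibroblast sum of its own library, Mmp2 was 2.32%, 3.74% and 2.79% in Ctrl, 3.02%, 3.01% and 3.29% with VHH-OD-Fc, 1.84%, 1.4% and 1.3% with VHH-PD-1-Fc, and 0.639%, 0.538% and 0.75% with VHH-OD-PD-1-Fc. That percentage was chosen after the values were seen, and on it the 6 libraries with a PD-1 arm were lowest. On the same measure Mmp14 was 8.93%, 8.34% and 8.34% in Ctrl and 7.17%, 6.24% and 9.52% with VHH-OD-Fc. It was 17.1%, 11.1% and 14.0% with VHH-PD-1-Fc and 7.56%, 7.9% and 7.95% with VHH-OD-PD-1-Fc. The part of the fibroblast markers in the Mmp2 result was not tested. In whole tumour RNA, fewer cells of a type and less RNA per cell cannot be told apart.

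Mmp9, gelatinase B, is made by neutrophils and macrophages as well as by tumour cells. It measured 123, 212 and 185 FPKM in Ctrl, 193, 183 and 241 with VHH-OD-Fc, 96.4, 33.2 and 118 with VHH-PD-1-Fc, and 90.5, 87.5 and 92.5 with VHH-OD-PD-1-Fc. The highest library with a PD-1 arm was 118 and the lowest without one was 123, so the sets were separate by a narrow margin. Mmp9 fell by 1.21 (SE 0.38) with VHH-PD-1-Fc against Ctrl (adjusted p 0.0226) and by 1.17 (SE 0.38) with VHH-OD-PD-1-Fc against VHH-OD-Fc (adjusted p 0.0298). With both arms relative to Ctrl the difference of -0.90 (SE 0.38) did not pass (adjusted p 0.0768), but it did so in 7 alternatives, among them TPM rescaling (-1.13, adjusted p 0.0301) and without replicate 2 of VHH-PD-1-Fc (adjusted p 0.00331), which shares only the estimate of spread. Without VHH-PD-1-Fc replicate 2 the difference of VHH-PD-1-Fc from Ctrl was -0.66 (adjusted p 0.0287), so that library carries much of its size. The call was lost without Ctrl replicate 2 (-1.04, adjusted p 0.0733) or 3 (-1.14, adjusted p 0.0638), with the length trend removed (-0.97, adjusted p 0.0626), and, at an unmoved -1.21, with no filter on low values (adjusted p 0.0609) or only the 2 groups in the fit (adjusted p 0.0893). The call against VHH-OD-Fc was lost with any 1 library of its own groups left out (-1.25 to -1.05, adjusted p 0.0511 to 0.095), with no filter (adjusted p 0.0628), with the length trend removed (-1.02, adjusted p 0.06) and with the libraries of both arms as 1 sample (-1.17, adjusted p 0.23). The summed FPKM of 11 neutrophil markers was 682 to 987 in Ctrl, 505 to 2039 with VHH-OD-Fc and 445 to 1262 with VHH-PD-1-Fc. It was 1967 to 2021 with VHH-OD-PD-1-Fc, where the Mmp9 libraries lay below those of Ctrl. S100a8 and S100a9, which encode calprotectin, make up most of that sum. The other 9 markers summed to 117 to 165 in Ctrl and 94.8 to 326 with VHH-OD-Fc. Their sum was 101 to 203 with VHH-PD-1-Fc and 275 to 290 with VHH-OD-PD-1-Fc. Among those 9, Retnlg measured 31.9, 60.4 and 35.4 FPKM in Ctrl and 194, 194 and 181 with VHH-OD-PD-1-Fc. Retnlg thus made most of the gap between these 2 groups in that sum. The markers did not move as one: of 10 tested, 3 rose with VHH-OD-PD-1-Fc against Ctrl (S100a8, Retnlg and Il1r2), where 15.1% of all genes were higher, and none fell, while 4 of the 10 had a negative difference. Csf3r measured 16.4 to 26.2 FPKM in Ctrl, and its 3 libraries with both arms lay within that range. With VHH-PD-1-Fc against Ctrl, 2 of the 10 markers fell and 1 rose, where 32.3% of all genes were lower and 14.6% higher. There 8 of the 10 had a negative difference. No marker was at 0, and their part in the Mmp9 result was not tested.

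Mmp3 and Mmp10 encode stromelysins 1 and 2, broad proteases that also activate other metalloproteinases, and Mmp13 encodes collagenase 3, which cuts fibrillar collagen. The promoters of these 3 genes share a letter pattern that the other members with a promoter in the RefSeq table do not have. AP-1, a dimer of Fos and Jun family proteins, is known to bind the pattern TGANTCA, which equals its own reverse complement. Of the 8 members with a promoter entry, 3 hold it between 250 bases before and 50 bases after the gene start, as do 7.81% of all 32851 promoters in the table. They are shown because these 3 genes also had the widest spread among the VHH-PD-1-Fc libraries, a choice made from these same data. The 3 genes lie in the same gene cluster, so they are not independent cases. Any part of the pattern in that spread was not tested. The sequences lie on the plus strand of mouse chromosome 9 (GRCm38.p6) at chr9:7445746-7445812 for Mmp3, chr9:7502249-7502315 for Mmp10 and chr9:7272449-7272513 for Mmp13, with the pattern in capitals.
Mmp3: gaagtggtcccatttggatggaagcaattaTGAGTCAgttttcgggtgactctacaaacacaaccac
Mmp10: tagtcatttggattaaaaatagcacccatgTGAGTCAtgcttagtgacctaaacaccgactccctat
Mmp13: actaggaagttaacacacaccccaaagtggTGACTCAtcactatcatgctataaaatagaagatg

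The pattern begins 46 bases upstream of the Mmp3 start, 63 upstream of that of Mmp10 and 35 upstream of that of Mmp13. Mmp3 and Mmp10 carry the form TGAGTCA and Mmp13 the form TGACTCA, which is the same site read on the other strand. A match of letters describes the sequence and shows no binding. No promoter entry was matched for Mmp2 and Mmp9.

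Mmp3 measured 127, 166 and 244 FPKM in Ctrl, 189, 268 and 417 with VHH-OD-Fc, 173, 430 and 41.8 with VHH-PD-1-Fc, and 402, 411 and 403 with VHH-OD-PD-1-Fc. Libraries with both arms were all above Ctrl, while the VHH-PD-1-Fc libraries included both the highest and the lowest value of the series. The log2 difference of VHH-OD-PD-1-Fc from Ctrl was 1.23 (SE 0.64, adjusted p 0.144), and that from VHH-PD-1-Fc was 1.46 (SE 0.64, adjusted p 0.305). The latter was 0.57 without VHH-PD-1-Fc replicate 3 and 2.23 without its replicate 2. Neither passed the test, although the first did with only the 2 groups in the fit (adjusted p 0.00424), with library quality weights (0.86, adjusted p 0.0133) and with replicate 3 of VHH-PD-1-Fc left out (adjusted p 0.0215), the last through the estimate of spread alone.

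Mmp10 measured 36.2, 127 and 72.7 FPKM in Ctrl, 42.7, 76.1 and 158 with VHH-OD-Fc, 58.8, 29.6 and 7.2 with VHH-PD-1-Fc, and 53.4, 52.4 and 53.8 with VHH-OD-PD-1-Fc. All 4 groups overlapped in part. Mmp13 measured 129, 241 and 199 FPKM in Ctrl, 203, 308 and 427 with VHH-OD-Fc, 292, 24.2 and 32.6 with VHH-PD-1-Fc, and 148, 147 and 153 with VHH-OD-PD-1-Fc. In the VHH-PD-1-Fc group, replicate 1 was above every Ctrl library and replicates 2 and 3 were below every one. Mmp13 had a highest-to-lowest ratio of 12.1 within that group, Mmp3 one of 10.3 and Mmp10 one of 8.17.

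These spreads set what the test could resolve. The log2 differences of VHH-PD-1-Fc from Ctrl were -1.52 (SE 0.68, adjusted p 0.0876) for Mmp10 and -1.56 (SE 0.72, adjusted p 0.0953) for Mmp13. For Mmp13 the value became -2.67 (SE 0.31, adjusted p 0.000186) without VHH-PD-1-Fc replicate 1 and -0.90 (adjusted p 0.324) without its replicate 2. For Mmp10 it became -2.15 (SE 0.66, adjusted p 0.0225) without replicate 1 and -0.72 (adjusted p 0.32) without replicate 3, and with all libraries and TPM rescaling it passed at -1.78 (adjusted p 0.046). Single libraries thus moved both values in either direction. The difference of Mmp13 between VHH-OD-PD-1-Fc and VHH-PD-1-Fc, 1.26 (adjusted p 0.437), became 2.37 (adjusted p 0.00817) without replicate 1 of the latter, 0.60 without its replicate 2 and 0.81 without its replicate 3.

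Of 10 listed AP-1 subunit genes, all of them tested, 5 fell and 1 rose with VHH-PD-1-Fc against Ctrl, where 32.3% of all genes were lower and 14.6% higher. With VHH-OD-PD-1-Fc against Ctrl 3 fell and 1 rose, where the shares of all genes were 27.1% and 15.1%. Atf3, Fosb, Batf and Maff passed in neither. Jun, the founding Jun subunit, measured 84.4, 109 and 78.4 FPKM in Ctrl, 22.6, 17.7 and 20.7 with VHH-PD-1-Fc, and 59.2, 56.9 and 55.9 with VHH-OD-PD-1-Fc. Its 3 groups did not overlap, with VHH-OD-PD-1-Fc in the middle. Jun fell by 2.09 (SE 0.14, adjusted p 1.07e-05) with VHH-PD-1-Fc against Ctrl and was 1.46 higher (SE 0.14, adjusted p 0.00138) with VHH-OD-PD-1-Fc than with VHH-PD-1-Fc. Fosl1, a Fos family member, fell by 1.57 and Fosl2 by 0.84 with VHH-PD-1-Fc, while Jund rose by 0.94 there and by 1.37 with VHH-OD-PD-1-Fc. Of the 3 metalloproteinase genes with the letter pattern, none passed the test in these comparisons. A link between the AP-1 subunits and these genes was not tested.

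Mmp11, stromelysin 3, and Mmp14, the membrane-anchored metalloproteinase that activates pro-Mmp2 at the cell surface, varied far less. Mmp11 measured 13.3, 17.4 and 19.8 FPKM in Ctrl, 28.2, 19.5 and 21.2 with VHH-OD-Fc, 24.1, 27.0 and 27.3 with VHH-PD-1-Fc, and 14.5, 16.0 and 17.5 with VHH-OD-PD-1-Fc. The VHH-PD-1-Fc libraries were all above those of Ctrl and of VHH-OD-PD-1-Fc. Mmp11 rose by 0.62 (SE 0.16, adjusted p 0.00864) with VHH-PD-1-Fc against Ctrl, the only member to rise in any comparison. It fell by 0.48 (SE 0.16, adjusted p 0.0311) with VHH-OD-PD-1-Fc against VHH-OD-Fc. With VHH-OD-PD-1-Fc against VHH-PD-1-Fc it was -0.68 (SE 0.16), without passing (adjusted p 0.0778), though it passed without Ctrl replicate 1 (adjusted p 0.0467). The rise was not called with library quality weights (0.42, SE 0.22, adjusted p 0.164) or when FPKM was rescaled to TPM (0.42, adjusted p 0.0559). The fall against VHH-OD-Fc was lost without VHH-OD-Fc replicate 1 (-0.33, adjusted p 0.122) or 3 (-0.53, adjusted p 0.0523), and without replicate 1 (-0.42, adjusted p 0.107) or 2 (-0.49, adjusted p 0.075) of the reagent with both arms. It was also lost in 5 other alternatives, from -0.48 to -0.37, with adjusted p from 0.0572 (no filter) to 0.229 (both arms as 1 sample), while TPM rescaling gave -0.73. Chchd10 overlaps exons of Mmp11 on the opposite strand, and strand use in the counting is not given in the sources used here, so reads from the overlap cannot be told apart.

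Mmp14 measured 56.2, 75.6 and 76.7 FPKM in Ctrl, 87.7, 72.5 and 75.2 with VHH-OD-Fc, 46.8, 60.0 and 60.5 with VHH-PD-1-Fc, and 47.5, 50.1 and 50.4 with VHH-OD-PD-1-Fc. The VHH-OD-PD-1-Fc values were below all those of Ctrl and VHH-OD-Fc, whereas VHH-PD-1-Fc overlapped Ctrl. With both arms, Mmp14 fell by 0.47 (SE 0.14, adjusted p 0.0194) relative to Ctrl and by 0.65 (SE 0.14, adjusted p 0.00435) relative to VHH-OD-Fc. With VHH-PD-1-Fc against Ctrl it was -0.31 (SE 0.14, adjusted p 0.0899), and it moved with the scaling, from -0.54 (adjusted p 0.00844) with TPM to -0.08 with median of ratios and -0.06 with the length trend removed. It passed without Ctrl replicate 1 (-0.45, adjusted p 0.0191) and was -0.19 without VHH-PD-1-Fc replicate 1. The call of both arms relative to Ctrl was lost without Ctrl replicate 2 or 3 or replicate 1 of its own group (-0.45 to -0.40, adjusted p 0.0632 to 0.0759). It was lost at a smaller size with the length trend removed (-0.27, adjusted p 0.189) and with median of ratios (-0.31, adjusted p 0.145), and was -0.71 with TPM. Counting the 3 VHH-OD-PD-1-Fc libraries as 1 sample left both differences of Mmp14 at -0.47 and -0.65 but raised their SE to 0.22, with an adjusted p of 0.194 against Ctrl and 0.102 against VHH-OD-Fc.

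Among the inhibitors, Timp1, a secreted protein induced by cytokines, measured 238, 364 and 401 FPKM in Ctrl, 272, 358 and 340 with VHH-OD-Fc, 281, 152 and 633 with VHH-PD-1-Fc, and 469, 458 and 459 with VHH-OD-PD-1-Fc. Libraries with both arms were above all of Ctrl, and the VHH-PD-1-Fc group again held both extremes of the series. The difference of VHH-OD-PD-1-Fc from Ctrl was 0.50 (SE 0.40, adjusted p 0.329), 0.27 without Ctrl replicate 1 and 0.07 with quantile normalization. That from VHH-PD-1-Fc was 0.62 (SE 0.40, adjusted p 0.496), with 1.16 (SE 0.27, adjusted p 0.0473) without replicate 3 of the latter and 0.13 without its replicate 2. Timp1 lies within Syn1, which runs on the opposite strand without sharing exons.

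Timp2, which both inhibits metalloproteinases and helps Mmp14 bind pro-Mmp2, had the smallest spread. It measured 113, 123 and 117 FPKM in Ctrl, 144, 142 and 134 with VHH-OD-Fc, 142, 139 and 123 with VHH-PD-1-Fc, and 102, 101 and 102 with VHH-OD-PD-1-Fc. Each single-arm reagent gave a higher mean than Ctrl and the reagent with both arms gave the lowest values of the series. Timp2 fell by 0.46 (SE 0.08, adjusted p 0.00147) with VHH-OD-PD-1-Fc against VHH-OD-Fc and by 0.40 (SE 0.08, adjusted p 0.0497) against VHH-PD-1-Fc. The first call was lost at the same size with the libraries of both arms as 1 sample (-0.46, SE 0.14, adjusted p 0.0747) and at a smaller one with the length trend removed (-0.26, SE 0.09, adjusted p 0.0555). The second call was at the edge of the threshold and held in 5 of 24 alternative analyses, in which its value ranged from -0.47 to -0.37. Relative to Ctrl the difference with both arms was -0.21 (SE 0.08, adjusted p 0.0537). It passed without any 1 of the VHH-PD-1-Fc libraries (adjusted p 0.0227 to 0.0388) and, at -0.44, with TPM rescaling (adjusted p 0.0011). It was -0.05 (adjusted p 0.725) with median of ratios and 0.03 (adjusted p 0.841) with the length trend removed. With VHH-PD-1-Fc against Ctrl the difference was 0.19 (SE 0.08, adjusted p 0.0677), or 0.26 (adjusted p 0.0158) without replicate 3 of that group. It was 0.48 (adjusted p 0.0029) with the length trend removed, -0.03 with TPM rescaling and -0.02 with quantile normalization. With VHH-OD-Fc against Ctrl it was 0.25 (SE 0.08, adjusted p 1).

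Timp3, the inhibitor that stays bound to the matrix and also blocks Adam17, was the least abundant member. It measured 1.7, 2.51 and 2.45 FPKM in Ctrl, 2.14, 2.32 and 2.56 with VHH-OD-Fc, 0.255, 0.2 and 1.18 with VHH-PD-1-Fc, and 0.2, 0.194 and 0.376 with VHH-OD-PD-1-Fc. All 6 libraries with a PD-1 arm were below all 6 without one. Timp3 fell by 1.10 (SE 0.21, adjusted p 0.00199) with VHH-PD-1-Fc and by 1.35 (SE 0.21, adjusted p 0.000805) with VHH-OD-PD-1-Fc, both relative to Ctrl. Relative to VHH-OD-Fc it fell by 1.41 (SE 0.21, adjusted p 0.000728) with both arms. Adding 1 to every FPKM compresses such low values. With 0.1 added instead, the same 3 differences were -2.15, -2.72 and -2.81, and with TPM rescaling -1.81, -2.20 and -2.28. The estimated reads behind Timp3 were 41 to 736 per library, so the lowest libraries rest on few reads. Exons of Syn3 overlap Timp3 on the opposite strand, and those reads cannot be told apart.

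**Figure D3:**
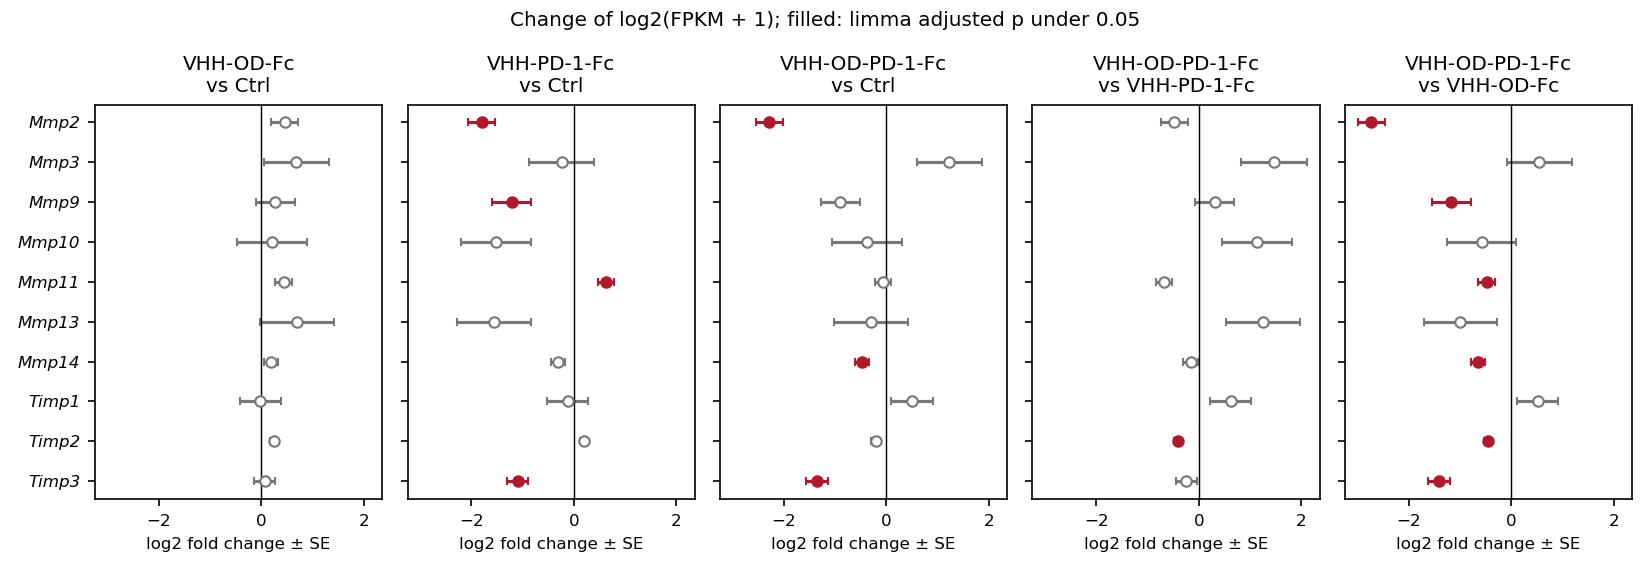
Log2 fold change with its standard error for the 10 genes in the 5 comparisons between groups, from the limma fit on log2(FPKM + 1). Filled points passed an adjusted p of 0.05. Mmp2 and Timp3 are filled and negative in the 3 comparisons that differ in the PD-1 arm, and no point is filled for VHH-OD-Fc against Ctrl.

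Counted over the members, VHH-OD-Fc against Ctrl gave 0 calls of 10 by limma, as it gave 0 of 14306 genes (0%), with 449 genes at an unadjusted p under 0.05. Other settings called 4 genes with library quality weights, 2 with no filter and 1 without VHH-OD-Fc replicate 3, none of them a member. Of the 10 members, 9 had a positive difference, with a median of 0.26 against -0.02 over all genes. Timp2 alone had separate groups, 1 of 10 members against 10.2% of all genes. Timp2 and Mmp11 (0.43, SE 0.16) had the smallest unadjusted p values, 0.00996 and 0.0205.

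VHH-PD-1-Fc against Ctrl gave 4 calls of 10 members, against 46.9% of all genes. Of these, 3 fell, against 32.3% of all genes, and 1 rose, against 14.6%. The members' share was close to that of all genes in both directions. Their median difference was -0.71 and that of all genes -0.19. The same 4 genes, Mmp2, Mmp9, Mmp11 and Timp3, had groups that did not overlap, against 49.1% of all genes.

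VHH-OD-PD-1-Fc against Ctrl gave 3 calls, all lower (Mmp2, Mmp14 and Timp3), against 42.2% of all genes called, 27.1% lower and 15.1% higher. The median was -0.34 for the members and -0.14 for all genes. The libraries did not overlap for 7 of the 10, against 64.4% of all genes. This comparison and the preceding one share the Ctrl libraries. VHH-OD-PD-1-Fc against VHH-OD-Fc gave 6 calls, all lower, against 39.9% of all genes called, 24.5% lower and 15.4% higher. The median was -0.62 for the members and -0.11 for all genes, and 8 of 10 did not overlap, against 65.7% of all genes.

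Within the groups that carry the PD-1 arm, VHH-OD-PD-1-Fc against VHH-PD-1-Fc gave 1 call of 10, the lower Timp2, against 0.839% of all genes called, 0.301% lower and 0.538% higher. Another 2 members, Mmp11 and Mmp2, had libraries that did not overlap, which makes 3 of 10, against 21.0% of all genes. The difference from additivity asks whether the OD arm's difference was the same with and without the PD-1 arm, though the doses differ between reagents. It gave 0 calls of 10 members by limma and 16 of all genes (0.112%, of which 0.0909% higher and 0.021% lower), with 1709 genes at an unadjusted p under 0.05. The smallest p among the members were those of Timp2 at -0.65 (SE 0.11, adjusted p 0.0752) and Mmp11 at -1.11 (SE 0.22, adjusted p 0.0997). With any 1 of the VHH-PD-1-Fc libraries left out, Timp2 passed. Outside the members, the AP-1 subunit Jun passed, at 1.36 (SE 0.19, adjusted p 0.0266).

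Other genes of the family were mostly low. Of 17 further Mmp and Timp genes, 6 passed the filter on low values. With VHH-PD-1-Fc against Ctrl 4 of the 6 fell, where 32.3% of all genes were lower: the macrophage elastase Mmp12 by 1.87, Mmp19 by 0.77, Mmp23 by 0.58 and Mmp15 by 0.48. Mmp12 measured 30.5, 25.2 and 18.8 FPKM in Ctrl and 13.3, 13.5 and 31.3 with VHH-OD-Fc. It measured 14.3, 2.1 and 5.95 with VHH-PD-1-Fc and 11.5, 12.5 and 11.5 with VHH-OD-PD-1-Fc. The summed FPKM of 10 macrophage markers, among them Adgre1, Csf1r and Cd68, was 1610 to 2132 in Ctrl. It was 1389 to 1784 with VHH-OD-Fc and 1648 to 1661 with VHH-OD-PD-1-Fc. With VHH-PD-1-Fc it was 1462 to 4880, and the high sum, that of replicate 2, holds Apoe at 1899, C1qa at 1237 and C1qb at 983 FPKM. Of the 10 markers 6 had a negative difference, 1 of them past the test, and their part in the Mmp12 result was not tested. With VHH-OD-PD-1-Fc, Mmp15 fell by 0.60 and Mmp19 by 0.68 against Ctrl. Against VHH-OD-Fc both fell again, by 0.44 and 0.62, and Mmp1a rose by 0.76. Mmp7, matrilysin, was listed at 0 in 11 of 12 libraries.

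Of 25 further regulators of metalloproteinase activity, 21 were tested, and 8 fell and 1 rose with VHH-PD-1-Fc against Ctrl, where 46.9% of all genes were called. Thbs1, a matrix glycoprotein that binds Mmp2 and Mmp9, fell by 1.52, its relative Thbs2 by 1.36 and the integrin chain Itgb3 by 0.76. With VHH-OD-PD-1-Fc against Ctrl 5 of the 21 fell and none rose, where 42.2% of all genes were called, with Thbs1 at -1.43, Itgb3 at -0.81 and the scavenger receptor Lrp1, which clears metalloproteinases, at -0.44. Against VHH-OD-Fc 6 fell and 1 rose, where 39.9% were called. In these comparisons the calls of this list were near or below the share of all genes. The related Adam and Adamts genes, 16 of 19 tested, gave 10 that fell with VHH-PD-1-Fc and 8 with both arms, each relative to Ctrl, and 9 with both arms relative to VHH-OD-Fc, with none higher. Of all genes 32.3%, 27.1% and 24.5% were lower in those comparisons. The sheddase Adam17, a target of Timp3, measured 18.3, 15.8 and 16.2 FPKM in Ctrl and 9.74, 8.0 and 9.89 with VHH-PD-1-Fc. It fell by 0.80 (SE 0.09) there and by 0.67 (SE 0.09) with VHH-OD-PD-1-Fc. None of the 3 lists had a call for VHH-OD-Fc against Ctrl, or between the groups that share the PD-1 arm.

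**Figure D4:**
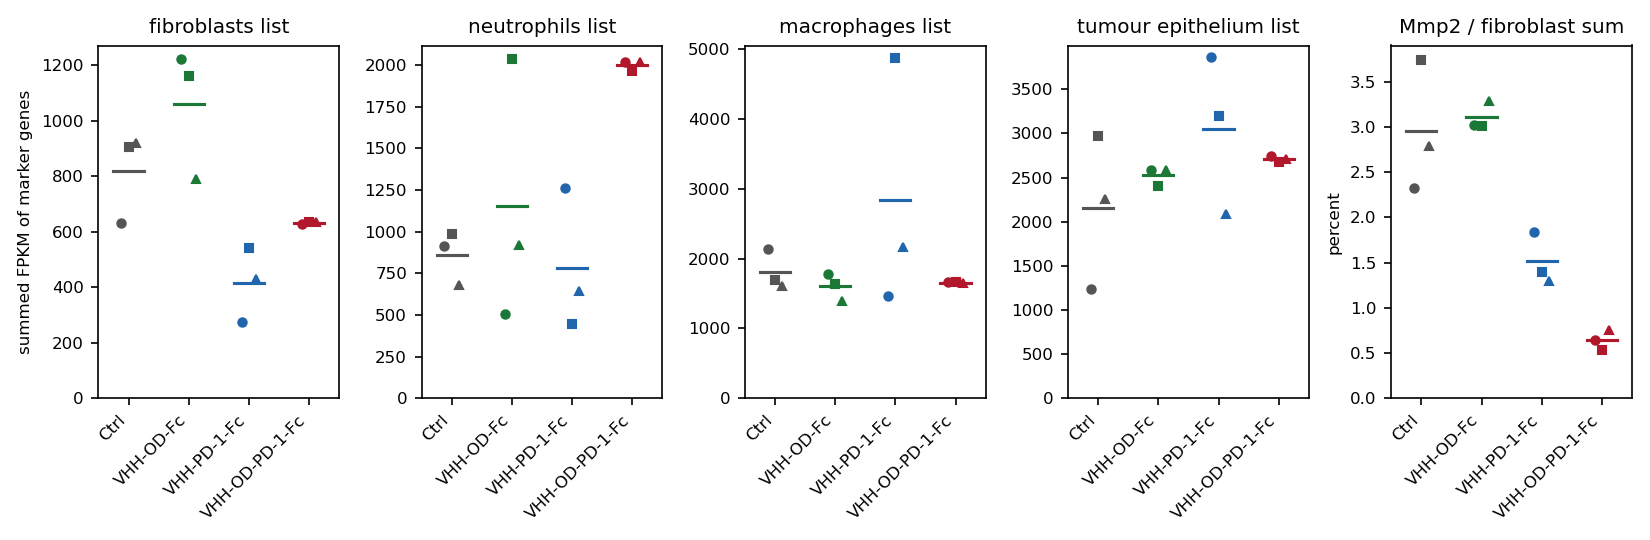
Summed FPKM of marker genes for cell types that produce matrix metalloproteinases, per library in the 4 groups. Fibroblast sums are lowest with VHH-PD-1-Fc (274 to 542), and neutrophil sums are 1967 to 2021 with VHH-OD-PD-1-Fc.

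The summed endothelial markers, led by Pecam1, Cdh5 and Kdr, were 66.2 to 95.5 FPKM in Ctrl, 81.4 to 116 with VHH-OD-Fc, 41.0 to 58.7 with VHH-PD-1-Fc and 52.7 to 57.9 with VHH-OD-PD-1-Fc, so the 6 libraries with a PD-1 arm were the lowest. Of the 8 tested, 5 fell with VHH-PD-1-Fc and 4 with VHH-OD-PD-1-Fc against Ctrl, where 32.3% and 27.1% of all genes were lower, with Kdr at -0.85 and -0.70. The pericyte and smooth muscle sum, led by Rgs5, Cspg4 and Acta2, was 88.0 to 147 in Ctrl and 136 to 250 with VHH-OD-Fc. It was 48.8 to 101 with VHH-PD-1-Fc, which overlapped Ctrl, and 74.5 to 80.3 with VHH-OD-PD-1-Fc. Of its 9 tested markers, 4 fell with VHH-PD-1-Fc and 4 with VHH-OD-PD-1-Fc against Ctrl, where 32.3% and 27.1% of all genes were lower. The sum of epithelial markers was 1241 to 2977 in Ctrl, 2083 to 3866 with VHH-PD-1-Fc and 2678 to 2748 with VHH-OD-PD-1-Fc. No marker in these lists was at 0 in every library, and their part in the changes of Mmp2, Mmp14 and Timp3 was not tested.

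Members were also compared by their deviations from group means over the 12 libraries, as a description. The 12 points share libraries and treatment groups, and the VHH-PD-1-Fc libraries had the largest median SD. Of 45 pairs, 27 correlated positively, from -0.71 to 0.91. Timp1 and Timp3 had the highest Pearson r, 0.91 (rho 0.87), which was 0.76 without the 2 libraries farthest from the median. Mmp11 and Mmp14 followed at 0.87 (rho 0.92), and 0.80 without the farthest 2. Mmp10 and Mmp13, which lie in the same gene cluster, stood at 0.71, and at 0.99 over the 9 libraries without VHH-PD-1-Fc. Mmp3 and Timp1 stood at -0.71, but at 0.76 without VHH-PD-1-Fc and at 0.71 without the farthest 2, so their negative value rests on those libraries.

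Among 7198 genes with a mean of at least 5 FPKM, the gene most like Mmp2 on this measure was Cadm4 (r 0.93), that most like Mmp9 was Psmd10 (0.99) and that most like Mmp3 was Rhoa (0.97). Cpt1a was most like Mmp10 (0.97), Bsg most like Mmp13 (0.99), Arhgef19 most like Mmp11 (0.88) and Fbn1 most like Mmp14 (0.98). For the inhibitors they were Csnk1a1 with Timp1 (0.98), Polr2f with Timp2 (0.96) and Rala with Timp3 (0.97). Each was picked as the highest of 7198 values, and these r carry no test.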

How the data were processed

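RNA-seq of 12 tumour libraries (paired reads of 150 bases) was analysed from a table of FPKM values per gene that the authors deposited. Per the submitters' processing notes, reads passed fastp 0.22.0 and HISAT2 2.2.1 with build GRCh38, a human build, although the table holds mouse symbols. The program behind the FPKM was not given in the sources used here, nor were the annotation and strand use. Groups follow the labels' treatment field.

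FPKM are not counts, so log2(FPKM + 1) was fitted with limma 3.58.1 in R 4.3.3 (a mean per group over all 12 libraries, trend on the mean) for 14306 genes with at least 1 FPKM in at least 3 libraries. Calls are at a Benjamini-Hochberg adjusted p under 0.05 over all genes, two-sided. The fit was tested on simulated data. Depth was estimated from the spacing of low FPKM of genes with 1 annotated transcript, taking GENCODE M21 lengths.

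Members and lists were chosen with earlier results of these data known. All members are named. From each other list at most 4 called genes per comparison without overlap between groups are named by smallest p (1 gene that the rule names is not reported here), plus the first 3 markers of each cell type. For each member the most similar genes were ranked by r. Promoters are from RefSeq (GRCm38.p6). Alternatives covered the pseudocount, filters, scalings, weights, blocking and left-out libraries.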

Additional observations from a re-analysis of the deposited data

How the results depend on the processing

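Of 14 member calls, 6 held under every alternative: Mmp2 and Timp3 in the 3 comparisons that differ in the PD-1 arm, with Mmp2 from -2.27 to -1.54, -2.65 to -2.02 and -3.11 to -2.58. No called value reversed, and 14 of 46 uncalled values changed sign under some alternative. For VHH-OD-PD-1-Fc against Ctrl, the 3 member calls became 5 with TPM rescaling, quantile normalization or without the 3 libraries that stand apart, and 6 with library quality weights or only the 2 groups compared. Leaving out 1 library gave 2 to 6 (5 without VHH-PD-1-Fc replicate 2, 6 without its replicate 3). With median of ratios or with the length trend removed, the call of Mmp14 was lost and no other member gained one. The same held with the libraries of both arms as 1 sample, where Mmp14 stayed at -0.47. For VHH-OD-PD-1-Fc against VHH-PD-1-Fc, the 1 call became 0 with no filter, TPM rescaling, median of ratios, quantile normalization, library quality weights, only the 2 groups compared, the VHH-OD-PD-1-Fc libraries as 1 sample, the length trend removed or the replicate block, and 0 to 2 when 1 library was left out. For VHH-OD-PD-1-Fc against VHH-OD-Fc, the 6 calls became 2 with the libraries of both arms as 1 sample and 3 with the length trend removed. For the difference from additivity, the 0 calls became 1 (Timp2) with library quality weights, and 0 to 1 when 1 library was left out, the 1 in each case without a VHH-PD-1-Fc library. The fit with 1 sample assumes that it varies like the other groups. The causes were not tested.

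Over all genes, the 6707 calls of VHH-PD-1-Fc against Ctrl became 3821 with only the 2 groups compared and 3741 with a mean FPKM of at least 5. The 6036 of VHH-OD-PD-1-Fc against Ctrl became 9901 with quality weights, 1329 as 1 sample and 3293 with the stricter filter. The 5712 against VHH-OD-Fc became 8716, 1098 and 3157 under the same settings. The 120 against VHH-PD-1-Fc became 73 with TPM, 188 with no filter, 11 with weights, 46 with only the 2 groups, 3 as 1 sample, 524 without the 3 libraries that stand apart, and 9 to 538 when 1 library was left out. The 16 of the difference from additivity became 10 with a pseudocount of 0.1, 38 with weights, 3 as 1 sample, 56 without the 3 libraries and 3 to 105 when 1 was left out. Scaling moved the split of calls: VHH-PD-1-Fc against Ctrl had 2092 higher and 4615 lower, 1346 and 6800 with TPM, 3129 and 2843 with median of ratios. VHH-OD-PD-1-Fc against Ctrl had 2158 and 3878, 1415 and 6192, 2909 and 2624. VHH-OD-PD-1-Fc against VHH-OD-Fc had 2209 and 3503, 1369 and 5616, 2797 and 2587, and against VHH-PD-1-Fc 77 and 43, 42 and 31, 40 and 45. The median of all genes for VHH-PD-1-Fc against Ctrl was -0.19, -0.43 with TPM and -0.01 with median of ratios.

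No pairing by replicate number was seen: same-numbered libraries correlated from -0.15 to 0.18 in their deviations, and 3 of 12 correlated best with their own number. With 3 libraries per group this cannot exclude a pairing, and the VHH-OD-PD-1-Fc libraries deviate little from their group mean. With the replicate block, the 120 calls of VHH-OD-PD-1-Fc against VHH-PD-1-Fc became 28 and the 16 of the difference from additivity became 3.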
